A study of Mus musculus with 12 samples.

Results

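The genes described here are 37 genes of DNA replication and the G1/S transition, of 55401 genes in the deposited count table. They were taken by symbol from a list of MCM, polymerase, nucleotide synthesis and G1/S genes, and all 37 had enough counts to be tested. The rule itself uses no expression value, but the list was chosen with earlier results of these data known. The libraries were labelled as mouse B16F10 cells, a transplantable melanoma line, in 4 groups of 3. The control group carried the guide sgNC, the sgRnf19a group a guide that the labels give as making the cells deficient in Rnf19a, a RING-between-RING E3 ubiquitin ligase. The control_IR and sgRnf19a_IR groups were the same cells 24 h into a treatment called IR, which the labels do not spell out, and the other 2 groups were untreated. The labels do not say whether the guided cells were a pool or a clone, nor whether each library had its own culture; p-values thus refer to the spread among these libraries only, which may be technical. The 6 columns of the IR-treated libraries carry the letter D instead of the name IR. They were put in the IR-treated groups as the only ones that the labels leave without columns, and they are named here by their column numbers.

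Before a cell divides, the origin recognition complex and the proteins Cdc6 and Cdt1 load the ring-shaped helicase MCM2-7 onto DNA in G1. In S phase Cdc45 and GINS join the loaded ring, polymerases copy the opened strands behind the sliding clamp PCNA, and ribonucleotide reductase and thymidylate enzymes supply the nucleotides. Many of these genes are known targets of E2F factors, which cyclin E and its kinase release from the retinoblastoma proteins at the G1/S transition, and irradiated or otherwise damaged cells are known to slow or stop this programme through p53 and p21.

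Depth and composition differed between untreated and IR-treated libraries. Total counts were 62.7 to 71.3 M in the 6 untreated libraries and 34.3 to 45.6 M in the 6 IR-treated ones, and annotated rRNA genes took 0.408 to 0.813% against 11.4 to 22.2% of the counts. In the same libraries, transcripts over 6 kb lost counts against those under 1 kb: the difference of their median log2 levels was 1.46 ± 0.388 in control and -1.47 ± 0.14 in control_IR, 2.0 ± 0.0968 in sgRnf19a and -0.335 ± 0.845 in sgRnf19a_IR (SD, n = 3). A second fit, corrected for the length and GC content of the transcripts, is therefore given beside the first for most IR results, and its values are called corrected. One library stood apart: sgRnf19a_IR replicate 4 lay nearest to the untreated level of its genotype for 25 of the 37 genes, against 8 and 4 for sgRnf19a_IR replicates 1 and 3, and it had the highest length difference of the 6 IR-treated libraries, 0.544. Control_IR replicate 4 likewise lay nearest for 25 of the 37. Leaving out either library alone moved no count of called genes in its own comparisons by over 1.5 times. Results that rest on sgRnf19a_IR replicate 4 are given with and without it. The labelled cell type was not borne out by its markers, since 6 of 10 melanocyte markers had 0 counts in all 12 libraries. The 10 together came to 9.53 to 13.8 CPM (counts divided by the scaled library size in M counts) in control, 2.29 to 3.09 in control_IR, 15.8 to 16.4 in sgRnf19a and 3.73 to 10.5 in sgRnf19a_IR. Mitf alone averaged 11.4, 2.53, 15.9 and 6.68 CPM in that order. The 7 epithelial markers together came to 658 to 830.0 CPM in control, 1040 to 1220 in control_IR, 559 to 572 in sgRnf19a and 394 to 684 in sgRnf19a_IR. Almost all of this was Krt8, Krt18 and Krt19, which averaged 351, 254 and 145 CPM in control. Epcam averaged at most 1.52 CPM in any group, and Cdh1, Cldn4 and Cldn7 at most 0.247. The 6 fibroblast markers came to 487 to 525, 414 to 445, 62.2 to 149 and 104 to 206 CPM in the same order. Col3a1 alone averaged 418, 347, 30.0 and 52.1 CPM. The 6 immune markers came to 34.1 to 43.1, 9.9 to 19.8, 28.9 to 44.4 and 15.8 to 29.4 CPM, and the 3 endothelial ones to at most 5.66. The part of these in the results below was not tested. Rnf19a itself was at 33.5, 29.4 and 21.5 CPM in the control libraries and 27.5, 25.6 and 22.6 CPM in the sgRnf19a libraries, which did not differ detectably (log2 change -0.16, SE 0.36, adjusted p by edgeR = 0.881). The 3 control_IR libraries had 4.37, 8.06 and 5.39 CPM of Rnf19a and the 3 sgRnf19a_IR libraries 18.1, 11.6 and 37.7, higher with the guide (1.92, SE 0.38, adjusted p = 0.00352; 1.07 corrected). The mRNA thus gives no check of the guide, which need not lower the transcript of its target, and group names here are those of the labels.

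Replication genes did not move as a block with IR. In control cells 16 of the 37 rose and 12 fell, and in sgRnf19a cells 15 rose and 8 fell. Values ran from the sliding clamp gene Pcna, up about 3-fold in both, to the polymerase alpha gene Pola1, down 13.3-fold in control cells. Of the 18183 genes tested, 22.2% were called higher and 25.7% lower with IR in control cells, beside 43.2% and 32.4% of the 37. In sgRnf19a cells it was 18.0% and 17.6% of all genes, beside 40.5% and 21.6% of the 37. Fewer cells in S phase and less RNA per such cell cannot be told apart in these libraries. The median log2 fold change of the 37 was 0.02 in control cells and 0.14 in sgRnf19a cells, beside -0.02 over all genes in each. Log2 changes are edgeR estimates, and calls were made at adjusted p-values under 0.05. With the correction for length and GC content the counts were 14 higher and 7 lower in control cells, against 21.9% and 20.7% of all genes, and 12 higher and 10 lower in sgRnf19a cells, against 18.6% and 18.2%. On the authors' FPKM values the counts were 9 higher and 19 lower in control cells, against 16.6% and 47.3% of all genes, and 5 and 16 in sgRnf19a cells, against 14.2% and 49.4%. The median over all genes was itself -0.34 and -0.4 there. With upper-quartile scaling the counts were 17 and 9, against 28.2% and 21.9% of all genes, and 16 and 5, against 20.3% and 14.5%, with all genes at a median of 0.19 and 0.09.

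Both IR comparisons side by side gave 12 genes called higher in each (Ccne1, Cdc45, Dut, Fen1, Gins1, Gins2, Mcm7, Pcna, Rfc3, Rpa2, Tk1 and Tyms) and 5 called lower in each (Clspn, E2f8, Mcm4, Pole and Rrm2). Mcm6 was called in opposite directions. A further 10 were called in control cells only, 5 in sgRnf19a cells only, and Cdc6, Cdt1, Chaf1a and Mcm3 in neither. How many of all genes tested show each of these patterns was not counted. The overlap of calls thus cannot be set against all genes and describes the listed genes only. Whether the responses differed is tested further on.

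**Figure D1:**
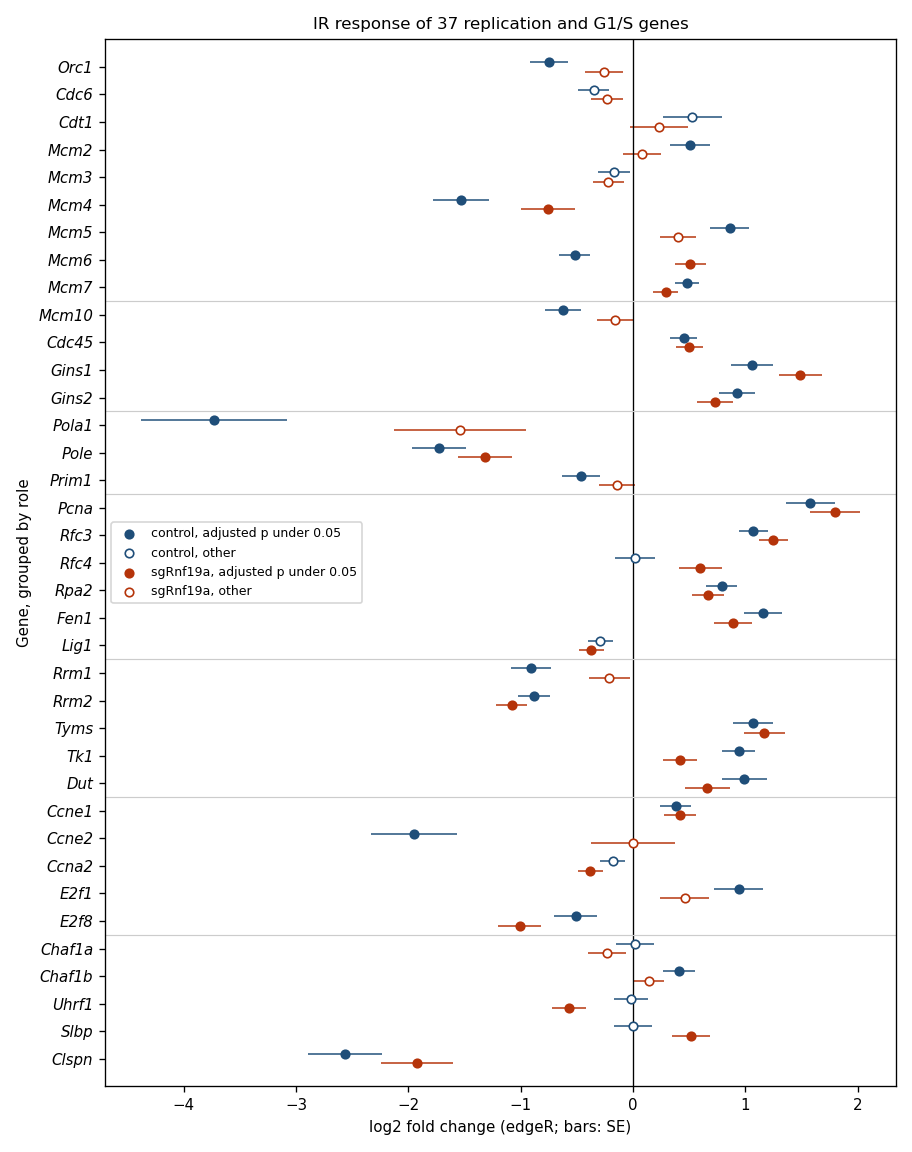
The log2 fold change with IR is plotted for each of the 37 genes, grouped by role, in control cells (blue) and sgRnf19a cells (red), with bars for the SE and filled points for an adjusted p under 0.05. Pcna stands highest and Pola1 and Clspn lowest, and Mcm6 is the gene with filled points on both sides of 0.

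The genes that load the helicase at origins were called in both directions. Of 9 licensing genes, 3 rose and 3 fell in control cells (33.3% each), against 22.2% and 25.7% of all genes. In sgRnf19a cells 2 rose and 1 fell (22.2% and 11.1%), near the 18.0% and 17.6% of all genes. Each role holds few genes, so its counts describe these genes only. Mcm4 (chromosome 16, 15623897 to 15637400 in the authors' table, as in the mm10 annotation), a subunit of the helicase ring, measured 285, 312 and 292 CPM in replicates 1, 2 and 3 of control and 86.7, 108 and 113 in replicates 1, 4 and 5 of control_IR. It was at 331, 345 and 313 CPM in replicates 1, 2 and 3 of sgRnf19a, and at 155, 135 and 294 in sgRnf19a_IR replicates 1, 3 and 4. All IR-treated libraries lay below the untreated ones of their genotype, but sgRnf19a_IR replicate 4 only just. Mcm4 fell 2.89-fold in control cells (log2 change -1.53, SE 0.25, adjusted p by edgeR = 0.000356; -0.75 corrected) and 1.69-fold in sgRnf19a cells (-0.76, SE 0.24, adjusted p = 0.0291; -0.56 corrected and -1.19 without sgRnf19a_IR replicate 4).

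Its partner Mcm5 (chromosome 8, 75109569 to 75128439) moved the other way in the same control cells. Mcm5 was at 204, 228 and 247 CPM in control and at 449, 371 and 415 in control_IR, with no overlap, a 1.82-fold rise (log2 change 0.86, SE 0.17, adjusted p by edgeR = 0.00108; 0.78 corrected). In sgRnf19a cells it was at 205, 200 and 205 CPM untreated and at 260.0, 339 and 210.0 with IR in replicates 1, 3 and 4, and this change did not pass (0.4, SE 0.16, adjusted p = 0.0764; 0.37, adjusted p = 0.0521, corrected and 0.55, adjusted p = 0.00468, without replicate 4). Mcm2 rose 1.42-fold in control cells, from 215 ± 27.4 to 305 ± 5.71 CPM (SD, n = 3; edgeR adjusted p = 0.0316; 0.33 corrected), and was at 198 ± 10.2 and 209 ± 53.5 CPM in sgRnf19a and sgRnf19a_IR. Mcm7 rose 1.4-fold in control cells (367 ± 18.6 to 512 ± 16.1 CPM, adjusted p = 0.00267) and 1.23-fold in sgRnf19a cells (373 ± 7.27 to 458 ± 34.4, adjusted p = 0.0492), but neither call was kept after the correction (0.24 and 0.25, adjusted p = 0.0873 and 0.0853). On the authors' FPKM values its log2 differences were -0.01 and -0.17. Mcm3 was called in neither (log2 fold change -0.17 and -0.22), though after the correction it was called lower in both (-0.36 and -0.3).

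Mcm6 (chromosome 1, 128331590 to 128359664) was the one member called in the test of a difference between the IR responses of the genotypes. It was at 229, 222 and 244 CPM in control and at 151, 183 and 151 in control_IR replicates 1, 4 and 5. The sgRnf19a libraries had 231, 233 and 248 CPM and those of sgRnf19a_IR 355, 280.0 and 377 in replicates 1, 3 and 4. Untreated levels overlapped between the genotypes, every control_IR library lay below them and every sgRnf19a_IR library above. Mcm6 fell 1.44-fold in control cells (log2 change -0.52, SE 0.14, adjusted p by edgeR = 0.00755) and rose 1.42-fold in sgRnf19a cells (0.51, SE 0.14, adjusted p = 0.013). The direction in control cells turned with the correction (0.23, adjusted p = 0.074), while the rise in sgRnf19a cells came to 0.85 (adjusted p = 5.54e-05). Without sgRnf19a replicate 2 or sgRnf19a_IR replicate 1 the rise in sgRnf19a cells was not called (0.49 and 0.45, adjusted p = 0.0507 and 0.0776).

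The difference between the IR responses of Mcm6 was a log2 of 1.03 (SE 0.19, edgeR adjusted p = 0.0382), or 0.63 with the correction (adjusted p = 0.0343) and 0.95 without sgRnf19a_IR replicate 4 (adjusted p = 0.0184). It was 1 of 37 genes called higher and 0 called lower in that test, against 0.544% and 0.137% of all genes, or 2.59% in either direction with the correction. DESeq2 called 3 higher and 0 lower (12.5% of all genes in either direction), and 9 genes had an unadjusted edgeR p under 0.05, against 21.2% of all genes. Leaving out any one of control replicates 1, 2 and 3, control_IR replicates 1 and 5, sgRnf19a replicates 1, 2 and 3 or sgRnf19a_IR replicate 1 took the adjusted p of Mcm6 to between 0.0742 and 0.128, with the log2 difference between 0.98 and 1.07.

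The 6 ring subunits are assembled in equal numbers as proteins, which does not fix the ratios of their transcripts. Transcript levels scaled per length are set against each other here as a description. In the authors' FPKM values, Mcm4 made up 21.2% ± 1.17 of the summed level of Mcm2 to Mcm7 in control and 7.09% ± 1.02 in control_IR (SD, n = 3). Mcm5 went from 14.5% ± 0.551 to 25.6% ± 2.05, Mcm7 from 21.3% ± 0.351 to 28.7% ± 1.31 and Mcm6 from 12.8% ± 0.651 to 8.59% ± 1.13. In sgRnf19a cells Mcm6 went from 13.5% ± 0.681 to 18.7% ± 3.14 and Mcm5 from 13.5% ± 0.252 to 17.4% ± 3.85. The most abundant subunit was 2.85 ± 0.168 times the least abundant in control and 4.1 ± 0.512 times in control_IR, with Mcm4 in place of Mcm2 as the least abundant in each control_IR library. In sgRnf19a and sgRnf19a_IR the ratio was 3.23 ± 0.274 and 3.6 ± 0.918, with Mcm2 lowest throughout. The summed FPKM of the 6 was 437 ± 30.2 in control, 322 ± 14.0 in control_IR, 413 ± 10.4 in sgRnf19a and 310.0 ± 28.2 in sgRnf19a_IR. No test was made on these shares, and FPKM values are not corrected for the length and GC differences between the groups. With that correction of the counts, the log2 change of Mcm6 with IR in control cells was 0.23.

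**Figure D2:**
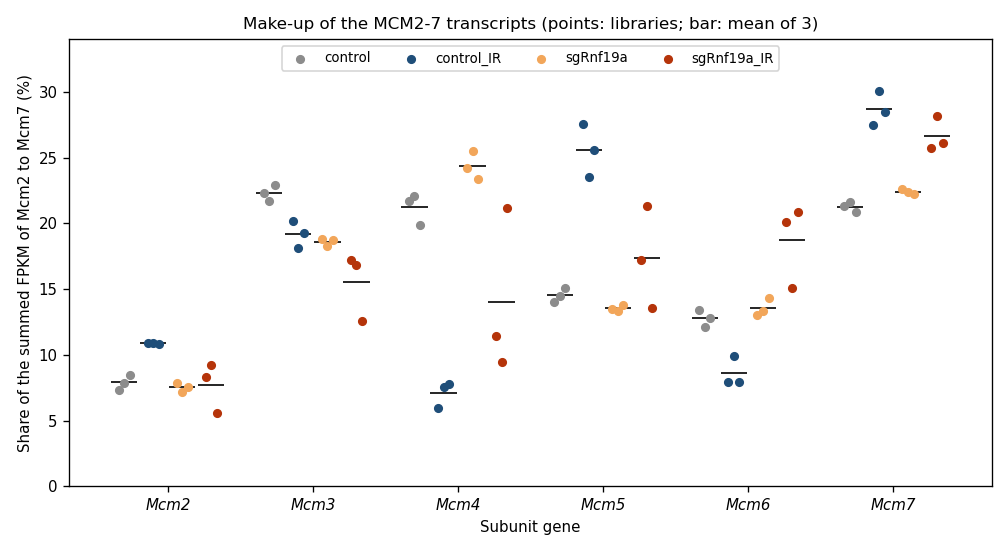
Each point is the share of one subunit in the summed FPKM of Mcm2 to Mcm7 in 1 library, in percent, with a bar for the mean of the 3 libraries of a group. The Mcm4 share is lowest in the 3 control_IR libraries, at 5.92 to 7.78%, and the sgRnf19a_IR library at 21.2% is replicate 4.

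The promoters of Mcm5 and Mcm6 are shown because both hold E2F-type matches and CCAAT boxes. In control cells these subunits moved apart with IR, but only before the correction for length and GC content. The windows are the 250 bases before the RefSeq start in GRCm38.p6, read on the gene's strand: chr8:75109259-75109508 on the plus strand for Mcm5 and chr1:128359706-128359955 on the minus strand for Mcm6. Capitals mark E2F-type matches (TTTCCCGC, TTTCGCGC, TTTGCCGC or TTTGGCGC) and CCAAT boxes (CCAAT), each on either strand.
Mcm5: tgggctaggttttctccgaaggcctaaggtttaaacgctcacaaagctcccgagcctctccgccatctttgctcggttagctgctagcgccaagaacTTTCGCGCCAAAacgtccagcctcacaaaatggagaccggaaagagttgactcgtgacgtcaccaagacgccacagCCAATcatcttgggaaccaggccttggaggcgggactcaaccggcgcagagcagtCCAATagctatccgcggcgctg
Mcm6: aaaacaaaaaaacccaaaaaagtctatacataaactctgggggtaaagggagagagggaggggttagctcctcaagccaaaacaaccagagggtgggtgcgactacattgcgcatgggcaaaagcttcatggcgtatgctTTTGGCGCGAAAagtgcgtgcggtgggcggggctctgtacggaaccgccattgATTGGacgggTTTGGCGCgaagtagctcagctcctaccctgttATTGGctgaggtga
Mcm5 held 2 E2F-type matches, on opposite strands and overlapping, and 2 CCAAT boxes. Mcm6 held 3 E2F-type matches, of which 2 overlap on opposite strands, and 2 CCAAT boxes. Of the 37 genes 31 had a RefSeq window, and Ccna2, Ccne2, Gins1, Gins2, Mcm4 and Pole had none. Only 13 of the 31 windows held no annotated exon base. For Cdc6, Dut, E2f1 and Mcm7 the RefSeq start lay 350, 325, 466 and 539 bases inside the gene as annotated by the authors. All 250 bases of the E2f1, Lig1, Mcm7 and Slbp windows were exonic, for Lig1 and Slbp in exons of another gene. So were 164 of the Orc1 window and 170 of the Dut window. A window without a match thus does not show that the promoter has none. An E2F-type match stood in 7 of the 31 (22.6%: Cdc6, Mcm5, Mcm6, Mcm7, Orc1, Pola1 and Rfc3), against 1.86% of all 32851 windows, and a CCAAT box in 20 (64.5%), against 33.8%. The cell cycle homology region (TTTGAA, either strand) was in 4 (12.9%), against 16.0%. Of the 7 genes with an E2F-type match, Mcm5, Mcm7 and Rfc3 rose with IR in control cells and Mcm6, Orc1 and Pola1 fell, with Mcm6 at 0.23 after the correction. A match describes the letters in the window and no binding.

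Of the other 3 licensing genes, which act before the ring is loaded, 1 fell in control cells, against 25.7% of all genes. In sgRnf19a cells 0 were called. Orc1, the largest subunit of the origin recognition complex, was at 23.4, 28.4 and 25.5 CPM in control and at 14.5, 15.5 and 16.0 in control_IR, a 1.68-fold fall (log2 change -0.75, SE 0.17, adjusted p by edgeR = 0.00357) that was not called after the correction (-0.29, adjusted p = 0.0626). In sgRnf19a cells it was at 38.3, 39.6 and 38.2 CPM untreated and at 30.7, 24.7 and 41.5 with IR, with replicate 4 the highest of the 6 (-0.26, adjusted p = 0.267; -0.49, adjusted p = 0.00878, without it). Cdc6, the loading ATPase, went from 118 ± 14.3 to 92.4 ± 13.2 CPM in control cells and from 111 ± 7.38 to 94.8 ± 9.13 in sgRnf19a cells, called in neither. Cdt1, its partner in loading, went from 71.9 ± 10.9 to 104 ± 13.0 CPM in control cells (edgeR adjusted p = 0.109). In sgRnf19a cells it was at 57.9 ± 0.895 CPM untreated and at 77.7, 89.4 and 37.3 with IR, and without replicate 4 it was called higher (0.52, adjusted p = 0.00838; 0.18 and not called with the correction as well).

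Of 4 genes that switch the loaded helicase on, 3 rose with IR in both genotypes, all but Mcm10. Of all genes 22.2% rose in control cells and 18.0% in sgRnf19a cells. Gins1, a GINS subunit, was at 26.1, 21.4 and 35.2 CPM in control and at 49.8, 58.6 and 63.6 in control_IR. Values were 20.2, 24.6 and 23.6 CPM in sgRnf19a and 62.4, 74.6 and 55.7 in sgRnf19a_IR. All IR-treated libraries lay above all untreated ones. It rose 2.08-fold in control cells (log2 change 1.06, SE 0.19, adjusted p by edgeR = 0.000744; 0.73 corrected) and 2.82-fold in sgRnf19a cells (1.49, SE 0.19, adjusted p = 0.000205; 0.86 corrected). Gins2 rose 1.9-fold (51.1 ± 5.79 to 97.1 ± 3.58 CPM, adjusted p = 0.000585; 0.93 before and after the correction) in control cells and 1.66-fold in sgRnf19a cells (34.7 ± 3.99 to 57.5 ± 11.8, adjusted p = 0.00453; 0.81 corrected). Of the 4097 exonic bases of Gins2, 2758 overlap Gse1 on the other strand, and whether the counting used strand is not given in the sources used here, so its level is uncertain. Cdc45, which joins the ring with GINS, rose 1.37-fold in control cells (85.3 ± 5.83 to 117 ± 8.56 CPM, adjusted p = 0.00745; 0.33 corrected, but -0.04 on FPKM) and 1.41-fold in sgRnf19a cells (90.9 ± 3.68 to 129 ± 12.0, adjusted p = 0.00681; 0.35 corrected). Mcm10, which activates the assembled helicase, fell 1.54-fold in control cells (76.8 ± 12.9 to 50 ± 4.75 CPM, log2 fold change -0.62, adjusted p = 0.00781), with a corrected value of 0.07, and was at 96.4 ± 5.59 and 86.2 ± 15.6 in sgRnf19a cells (not called).

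All 3 polymerase and primase genes fell with IR in control cells, and 1 of the 3 in sgRnf19a cells. Of all genes 25.7% fell in control cells and 17.6% in sgRnf19a cells. Pola1, the catalytic subunit of the polymerase that starts each strand, was at 102, 112 and 60.8 CPM in control and at 7.56, 7.6 and 5.55 in control_IR replicates 1, 4 and 5. In sgRnf19a it was at 97.8, 104 and 111 CPM and in sgRnf19a_IR replicates 1, 3 and 4 at 15.2, 10.5 and 81.4. Every IR-treated library lay below the untreated libraries except sgRnf19a_IR replicate 4, which exceeded control replicate 3. The fall was 13.3-fold in control cells (log2 change -3.73, SE 0.65, adjusted p by edgeR = 0.000585; -1.91 corrected). In sgRnf19a cells the change did not pass (-1.54, SE 0.59, adjusted p = 0.0617), but did with the correction (-1.02, adjusted p = 0.036) and without replicate 4 (-3.02, adjusted p = 4.39e-06; -1.72 with the correction as well). Pole, the catalytic subunit of the leading-strand polymerase, was at 76.0 ± 12.6 CPM in control and 22.9 ± 1.61 in control_IR (3.32-fold lower, adjusted p = 0.00017; -0.87 corrected) and at 87.8 ± 7.02 in sgRnf19a and 35.2 ± 13.9 in sgRnf19a_IR (2.49-fold lower, adjusted p = 0.00138; -0.72 corrected). Prim1, the primase that lays down the first RNA bases, fell 1.38-fold in control cells (48.7 ± 2.68 to 35.4 ± 7.01 CPM, adjusted p = 0.0368; -0.16 and not called after the correction) and was at 53.0 ± 0.0951 and 48.1 ± 8.06 CPM in sgRnf19a cells (-0.14; -0.34, adjusted p = 0.0496, corrected).

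The Pola1 promoter is shown as that of the member with the largest fall (chrX:93632156-93632405 on the minus strand, with the same marks). It held 1 E2F-type match and 1 CCAAT box, both on the reverse strand.
Pola1: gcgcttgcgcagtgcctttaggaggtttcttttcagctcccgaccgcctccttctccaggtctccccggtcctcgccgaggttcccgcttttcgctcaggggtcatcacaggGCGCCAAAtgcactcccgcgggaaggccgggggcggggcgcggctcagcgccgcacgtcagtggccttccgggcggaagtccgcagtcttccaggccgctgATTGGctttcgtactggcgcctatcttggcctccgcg

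Pcna, the sliding clamp (chromosome 2, 132249162 to 132253314), rose most. Of 6 genes of the clamp, its loader and Okazaki fragment processing, 4 rose in control cells, and 5 rose and 1 fell in sgRnf19a cells. Of all genes 22.2% rose in control cells, and 18.0% rose and 17.6% fell in sgRnf19a cells. Pcna was at 547, 396 and 735 CPM in control and at 1620, 1550 and 1840 in control_IR replicates 1, 4 and 5. It had 367, 352 and 439 CPM in sgRnf19a and 1250, 1650 and 1140 in sgRnf19a_IR replicates 1, 3 and 4. The lowest IR-treated library was above the highest untreated one. The rise was 2.98-fold in control cells (log2 change 1.58, SE 0.22, adjusted p by edgeR = 0.000168; 1.73 corrected) and 3.49-fold in sgRnf19a cells (1.8, SE 0.22, adjusted p = 0.000149; 1.56 corrected). Pcna is also a known p53 target, as is the p21 gene Cdkn1a. Cdkn1a went from 166 ± 18.0 to 419 ± 41.4 CPM in control cells (edgeR adjusted p = 0.000348, 0.83 corrected). In sgRnf19a cells it went from 189 ± 8.49 to 339 ± 111 (adjusted p = 0.00926, 0.59 corrected), but was not called on FPKM values (0.32, limma adjusted p = 0.181). Other p53 targets were not examined as a set, and the part of p53 in the rise of Pcna was not tested.

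Other genes around the clamp mostly rose with it. Rfc3, a clamp loader subunit, rose 2.1-fold in control cells (40.8 ± 3.9 to 85.6 ± 4.37 CPM, edgeR adjusted p = 0.000106; 0.68 corrected) and 2.38-fold in sgRnf19a cells (36.0 ± 1.01 to 85.7 ± 12.1, adjusted p = 7.36e-05; 0.71 corrected). Its fellow subunit Rfc4 did not change detectably in control cells (38.2 ± 8.37 and 38.8 ± 6.61 CPM, log2 change 0.02, SE 0.18) and rose 1.51-fold in sgRnf19a cells (32.1 ± 3.94 to 48.5 ± 3.54, adjusted p = 0.026; 0.29 and not called after the correction). Rpa2, of the single-strand binding protein RPA, rose 1.73-fold (72.4 ± 6.87 to 125 ± 4.63 CPM, adjusted p = 0.000536; 0.28 corrected) and 1.59-fold (61.1 ± 2.79 to 97.2 ± 15.3, adjusted p = 0.00277; 0.28 corrected). Fen1, the flap endonuclease of Okazaki fragments, rose 2.24-fold (72.2 ± 11.2 to 162 ± 16.0 CPM, adjusted p = 0.000199; 0.76 corrected) and 1.85-fold (67.5 ± 3.06 to 125 ± 25.4, adjusted p = 0.00176; 0.73 corrected), but 2039 of its 2422 exonic bases overlap genes on the other strand. Lig1, the ligase that seals those fragments, was lower in every IR-treated library than in the untreated ones of its genotype. It was at 187 ± 3.9 and 153 ± 3.39 CPM in control cells (log2 fold change -0.29, adjusted p = 0.0504; -0.49, adjusted p = 0.00034, corrected). In sgRnf19a cells Lig1 fell, with 174 ± 2.24 and 135 ± 15.3 CPM (-0.37, adjusted p = 0.0222; -0.4 corrected).

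Of 5 genes of nucleotide supply, the 3 of the thymidylate branch rose in both genotypes. Ribonucleotide reductase genes fell, 2 in control cells and 1 in sgRnf19a cells. Of all genes 22.2% rose and 25.7% fell in control cells, and 18.0% rose and 17.6% fell in sgRnf19a cells. Tyms, thymidylate synthase, was at 61.2, 55.1 and 81.9 CPM in control and at 136, 126 and 153 in control_IR. Values were 53.3, 48.3 and 55.9 CPM in sgRnf19a and 110.0, 142 and 103 in sgRnf19a_IR. Untreated and IR-treated libraries did not overlap. It rose 2.09-fold (log2 change 1.07, SE 0.18, adjusted p by edgeR = 0.000408; 1.42 corrected) and 2.26-fold (1.17, SE 0.18, adjusted p = 0.000446; 1.31 corrected). Dut, the dUTPase that makes its substrate, rose 1.99-fold (130 ± 27.3 to 259 ± 24.3 CPM, adjusted p = 0.00132; 0.68 corrected) and 1.58-fold (102 ± 4.49 to 161 ± 41.8, adjusted p = 0.021; 0.38 and not called after the correction). Tk1, the thymidine salvage kinase, rose 1.92-fold (162 ± 12.8 to 312 ± 18.0 CPM, adjusted p = 0.00034) and 1.34-fold (141 ± 2.42 to 190.0 ± 41.2, adjusted p = 0.0444), with corrected values of 0.12 and -0.1, neither called.

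Rrm2, the regulatory subunit of ribonucleotide reductase, was at 270.0, 292 and 306 CPM in control and at 155, 151 and 165 in control_IR. In sgRnf19a cells Rrm2 was at 320.0, 333 and 335 CPM in sgRnf19a and 133, 142 and 193 in sgRnf19a_IR. IR-treated and untreated libraries did not overlap, and Rrm2 fell 1.84-fold (log2 change -0.88, SE 0.14, adjusted p by edgeR = 0.000369; -0.53 corrected) and 2.11-fold (-1.08, SE 0.14, adjusted p = 0.000233; -1.08 corrected). Rrm1, the large subunit, fell 1.88-fold in control cells (348 ± 35.3 to 185 ± 35.1 CPM, log2 fold change -0.91, adjusted p = 0.00114), but its corrected value was 0.13 (adjusted p = 0.385). In sgRnf19a cells it was at 381 ± 6.2 and 329 ± 70.4 CPM and was not called.

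**Figure D3:**
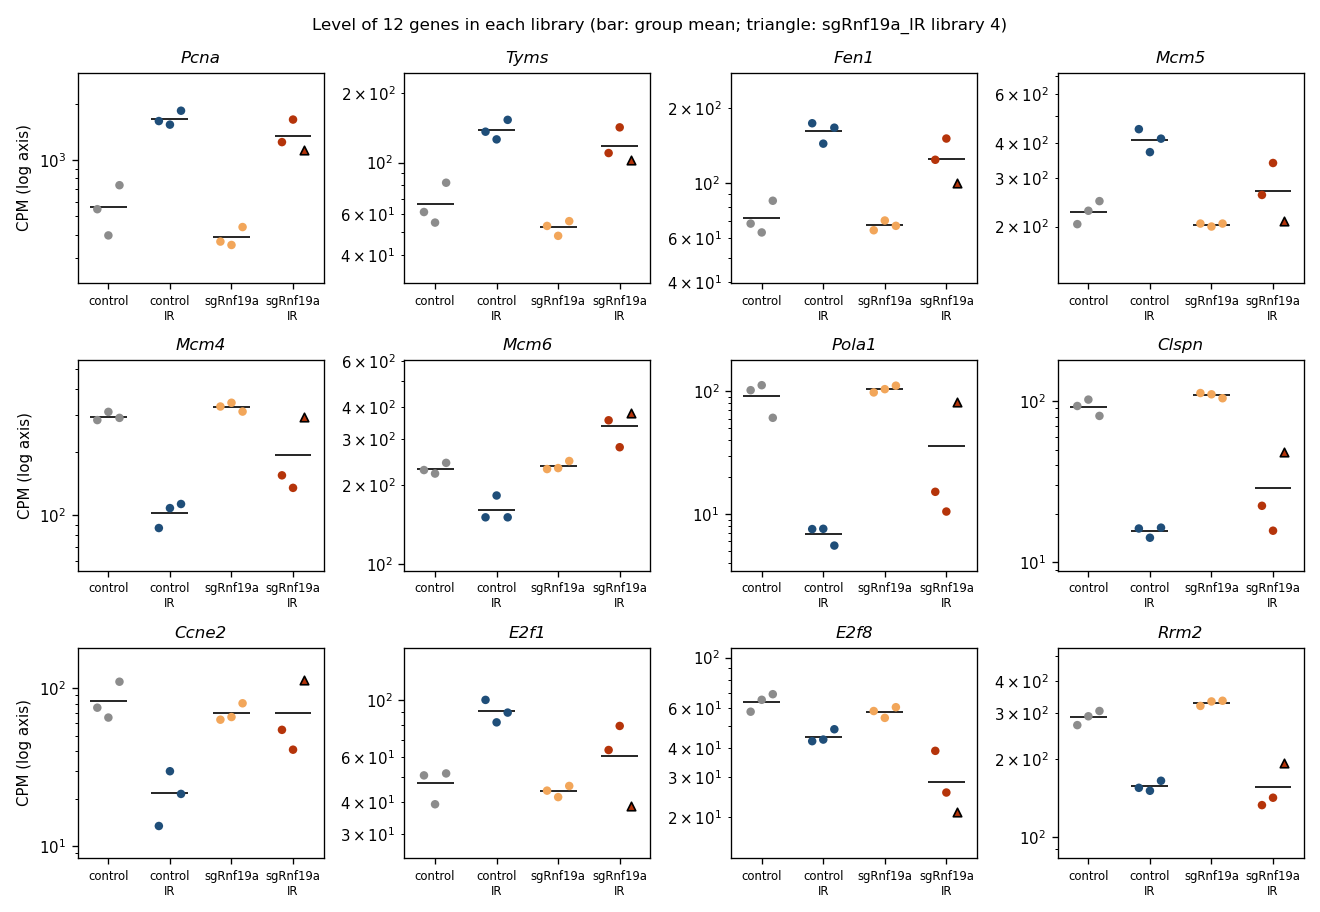
Levels in CPM on log axes are plotted for 12 genes in each of the 12 libraries, with a bar for the group mean and a triangle for sgRnf19a_IR replicate 4. Pcna and Tyms are higher and Rrm2 lower in all 6 IR-treated libraries than in all 6 untreated ones, while the triangle lies at 294 for Mcm4 and 81.4 for Pola1, near the untreated libraries, and for Ccne2 at 113, above them.

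Of 5 cyclin and E2F genes, 2 rose and 2 fell in control cells, and 1 rose and 2 fell in sgRnf19a cells. Of the E cyclins, which start S phase with their kinase, Ccne1 rose 1.3-fold in control cells (46.4 ± 5.03 to 60.3 ± 5.7 CPM, edgeR adjusted p = 0.0386) and 1.34-fold in sgRnf19a cells (43.7 ± 0.382 to 58.4 ± 8.16, adjusted p = 0.0326), but the direction of Ccne1 hangs on the scaling, with corrected values of -0.13 and 0.13 and FPKM values of -0.11 and -0.05. Ccne2 was at 75.3, 65.2 and 110.0 CPM in control and at 13.4, 29.8 and 21.4 in control_IR replicates 1, 4 and 5. Its levels were 63.2, 65.7 and 80.3 CPM in sgRnf19a and 54.5, 40.8 and 113 in sgRnf19a_IR replicates 1, 3 and 4. Control and control_IR did not overlap, while the sgRnf19a_IR libraries lay on both sides of the sgRnf19a ones. Ccne2 fell 3.87-fold in control cells (log2 change -1.95, SE 0.38, adjusted p = 0.00121), which was -0.13 (adjusted p = 0.73) after the correction. In sgRnf19a cells the corrected value was a rise of 1.08 (adjusted p = 0.00776) beside 0.00 uncorrected. Ccne2 has the lowest transcript GC content of the 37, at 36.3%, and 609 of its 3495 exonic bases overlap Ints8 on the other strand.

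Ccna2, cyclin A of S phase and G2, was at 235 ± 8.27 and 207 ± 21.4 CPM in control cells (not called; 0.35 and called higher after the correction) and fell 1.3-fold in sgRnf19a cells, from 283 ± 16.7 to 217 ± 6.55 CPM (edgeR adjusted p = 0.021; -0.22 and not called after the correction). The activator E2f1 was at 50.7, 39.1 and 51.6 CPM in control and at 100, 81.7 and 89.2 in control_IR, a 1.92-fold rise (log2 change 0.94, SE 0.22, adjusted p = 0.0041; 0.55 corrected). In sgRnf19a_IR it was at 63.7, 79.1 and 38.5 CPM beside 44.2, 41.7 and 46.1 untreated, so that replicate 4 fell below the untreated range (0.46, adjusted p = 0.131; 0.69, adjusted p = 0.00189, without it). The repressor E2f8 fell 1.42-fold in control cells (64.1 ± 5.68 to 45.1 ± 3.03 CPM, adjusted p = 0.0459; -0.33 and not called after the correction) and 2.02-fold in sgRnf19a cells (57.8 ± 3.11 to 28.6 ± 9.27, adjusted p = 0.00191; -0.95 corrected).

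Of 5 chromatin and checkpoint genes, 1 rose and 1 fell in control cells, and 1 rose and 2 fell in sgRnf19a cells, with the largest fall in Clspn. Clspn encodes claspin, which links stalled forks to the kinase Chk1, and was at 93.1, 102 and 80.8 CPM in control and 16.2, 14.2 and 16.4 in control_IR. It was at 112, 110.0 and 104 CPM in sgRnf19a and 22.4, 15.7 and 48.1 in sgRnf19a_IR. No IR-treated library reached an untreated one. Clspn fell 5.91-fold in control cells (log2 change -2.56, SE 0.33, adjusted p by edgeR = 0.000116; -1.88 corrected) and 3.79-fold in sgRnf19a cells (-1.92, SE 0.32, adjusted p = 0.000786; -1.56 corrected and -2.52 without replicate 4). Uhrf1, which guides maintenance of DNA methylation, was not called in control cells (373 ± 19.0 and 369 ± 13.4 CPM) and fell 1.48-fold in sgRnf19a cells (382 ± 17.0 to 257 ± 53.6, adjusted p = 0.0103; -0.55 corrected). Slbp, the histone mRNA binding protein, had a mean of 141 CPM in both control and control_IR and rose 1.43-fold in sgRnf19a cells (118 ± 11.3 to 169 ± 25.1, adjusted p = 0.0299; 0.37 corrected). Chaf1b, of the chromatin assembly factor CAF-1, rose 1.33-fold in control cells (60.6 ± 3.45 to 80.4 ± 8.06 CPM, adjusted p = 0.0291), against -0.16 corrected and -0.08 on FPKM. Its partner Chaf1a was called in neither (177 ± 16.6 and 179 ± 14.4 CPM, 163 ± 7.75 and 139 ± 33.8 CPM); 4648 of its 8854 exonic bases overlap Ubxn6 on the other strand.

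Transcript length ran through these differences. Over the 37 genes, Spearman's rho between transcript length and the log2 fold change with IR was -0.6 in control cells and -0.64 in sgRnf19a cells, beside -0.38 and -0.34 over the 18159 genes with a length. These are correlations across genes, which share their libraries and are no replicates. In control cells, 7 of 10 members under 2 kb rose and 1 fell, 9 of 20 from 2 to 4 kb rose and 6 fell, and 0 of 7 over 4 kb rose and 5 fell. After the correction rho was -0.32 and -0.36 over the 37, beside 0.13 and 0.16 over all genes, where its sign had turned. Those counts were then 5 and 0, 8 and 4, and 1 and 3. Of the 16 calls higher in control cells 12 were kept after the correction, and of the 12 calls lower 5 (Clspn, Mcm4, Pola1, Pole and Rrm2). In sgRnf19a cells 10 of 15 and 7 of 8 were kept.

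**Figure D4:**
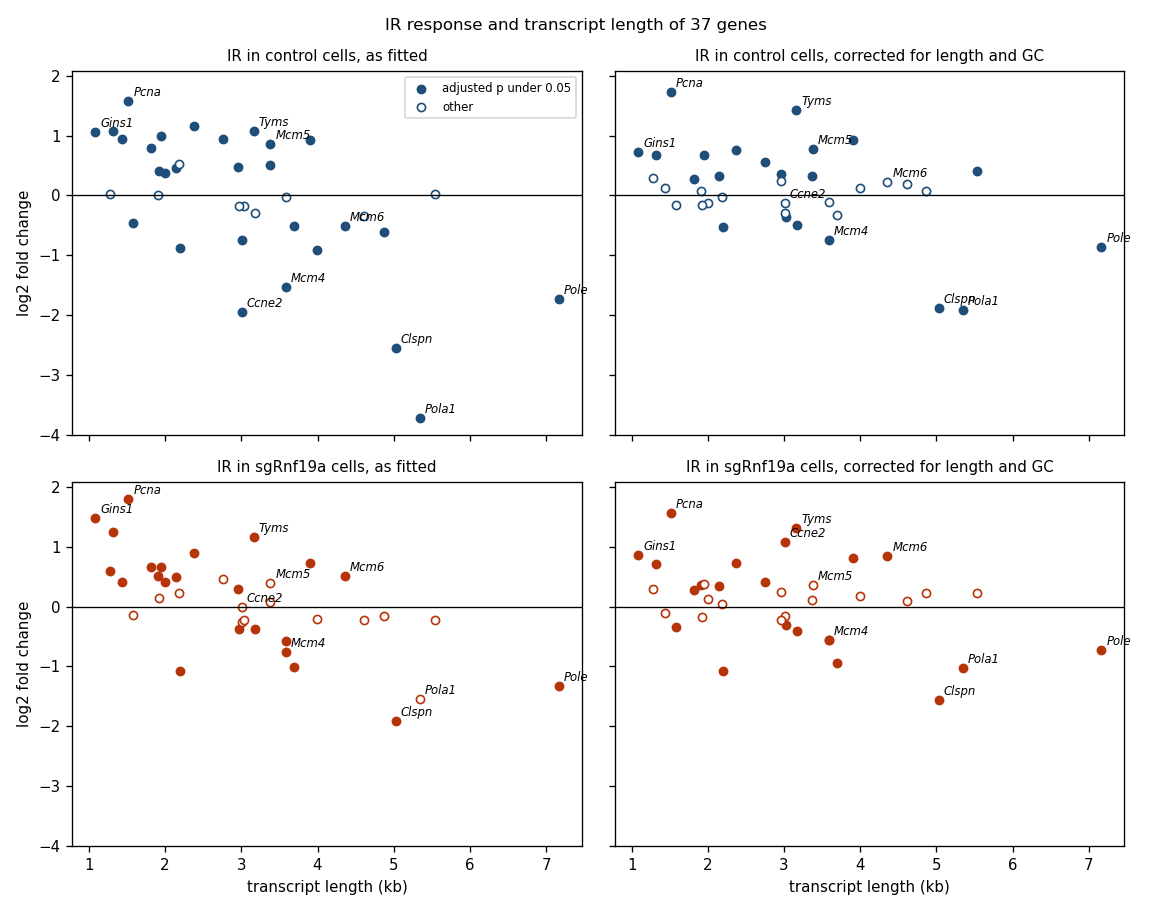
The log2 fold change with IR is plotted against transcript length in kb for the 37 genes, for control cells (upper row) and sgRnf19a cells (lower row), as fitted (left) and after the correction for length and GC content (right), with filled points for an adjusted p under 0.05. On the left the points fall from short to long transcripts, and on the right Pcna and Tyms stay high, Clspn, Pola1 and Pole stay low, and Ccne2 and Mcm6 move up.

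Of the 68 calls over the 5 comparisons, 43 were kept whichever single library of the groups compared was left out. In control cells those for Mcm2, Prim1 and Ccne1 were lost in 5 of 6 such refits, for E2f8 in all 6 and for Chaf1b in 4, at adjusted p up to 0.16. In sgRnf19a cells those for Mcm4, Mcm7, Tk1 and Ccne1 were lost in 5 of 6 (all but the one without sgRnf19a_IR replicate 4), for Rfc4, Dut and Slbp in 4, for Lig1 and Ccna2 in 3 and for Mcm6 in 2, at adjusted p up to 0.213. In sgRnf19a cells 9, 8 and 8 genes were called higher without sgRnf19a replicate 1, sgRnf19a replicate 2 and sgRnf19a_IR replicate 1. Without either of the first pair, 5 were called lower. Shares of all genes in these refits were not counted, so the losses cannot be set against all genes. Without sgRnf19a_IR replicate 4 there were 17 genes called higher and 10 lower in sgRnf19a cells, against 21.2% and 24.4% of all genes; 14 of the 15 first called higher (all but Slbp) and all 8 first called lower were among them, with Cdt1, E2f1, Mcm5, Orc1 and Pola1 added. The libraries share 1 estimate of the spread, and in control cells that refit called 17 higher and 14 lower, against 23.7% and 26.9% of all genes.

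None of the 37 was called with the guide in untreated cells. EdgeR called 0 higher and 0 lower, against 3.02% and 3.2% of all genes, with a median log2 fold change of -0.1 beside 0.03 over all genes. At an unadjusted p under 0.05 there were 5 (2 higher and 3 lower), against 16.9% of all genes. DESeq2 called 1 higher and 1 lower, against 10.4% of all genes in either direction. With the correction 1 was called higher and 2 lower, against 9.91%. Without sgRnf19a_IR replicate 4, Orc1 was called higher (adjusted p = 0.00604) and Gins2 lower (adjusted p = 0.0088), against 5.08% and 5.93% of all genes. Closest to a call were Orc1, at 25.8 ± 2.51 CPM in control and 38.7 ± 0.772 in sgRnf19a (log2 change 0.58, SE 0.17, adjusted p = 0.0729; 0.45, adjusted p = 0.0232, corrected), and Gins2, at 51.1 ± 5.79 and 34.7 ± 3.99 CPM (-0.56, SE 0.16, adjusted p = 0.0664; -0.54, adjusted p = 0.0155, corrected). Libraries of the groups did not overlap for either. The third gene called with the correction was Mcm3, at 326 ± 23.6 and 263 ± 5.43 CPM (-0.31, adjusted p = 0.269; -0.34, adjusted p = 0.042, corrected).

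Among IR-treated cells, 8 of the 37 were higher and 8 lower with the guide, against 21.0% and 12.8% of all genes. Higher were Orc1, Mcm4, Mcm6, Mcm10, Pola1, Rrm1, Ccne2 and Clspn, and lower were Mcm2, Mcm5, Gins2, Tk1, Dut, E2f8, Chaf1b and Uhrf1. No clamp gene was among them, though with the correction Pcna (-0.79, adjusted p = 0.0237) and Rpa2 (-0.25, adjusted p = 0.0455) were lower. The largest value was that of Pola1, 5.17-fold higher (log2 change 2.37, SE 0.62, adjusted p by edgeR = 0.0127). It came to 0.9 (adjusted p = 0.0184) without sgRnf19a_IR replicate 4, to 0.84 (adjusted p = 0.102) with the correction, and to 0.14 with both. Ccne2 was 3.22-fold higher (1.69, SE 0.38, adjusted p = 0.00624; 1.14 without replicate 4, and 0.56, adjusted p = 0.14, corrected). Orc1 was 2.1-fold higher (1.07, SE 0.17, adjusted p = 0.00125; 0.85 and 0.59) and Mcm6 2.09-fold higher (1.06, SE 0.14, adjusted p = 0.00029; 0.98 and 0.57), and both were called in each of these fits. Gins2 was 1.69-fold lower (-0.76, adjusted p = 0.00488; -0.66 corrected), Tk1 1.64-fold (-0.72, adjusted p = 0.00451; -0.26 corrected), Dut 1.61-fold (-0.69, adjusted p = 0.019; -0.7 corrected) and E2f8 1.58-fold (-0.66, adjusted p = 0.0219; -0.81 corrected).

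With the correction the split among IR-treated cells was 3 higher (Mcm10, Mcm6 and Orc1) and 11 lower, against 13.4% and 15.6% of all genes. Without sgRnf19a_IR replicate 4 it was 7 and 6, against 15.9% and 9.47%, with the calls of Clspn, Chaf1b and Mcm2 lost (0.29, -0.34 and -0.36). Without sgRnf19a_IR replicate 3 it was 10 and 14, against 22.7% and 16.2%. Without control_IR replicate 1 or 5, 2 or 3 were called lower. The share of all genes in those refits was not counted, so this drop cannot be set against all genes. Upper-quartile scaling gave 7 and 12, against 18.3% and 16.8%, and FPKM values 6 and 11, against 19.9% and 19.2%. Calls for Mcm2, Mcm4, Mcm5, Pola1, Dut, E2f8, Chaf1b, Uhrf1 and Clspn were lost without at least 1 of control_IR replicates 1, 4 and 5. Spearman's rho between this difference and transcript GC content was -0.76 over the 37 genes (-0.48 over all genes), and -0.2 after the correction. The comparison shares its control_IR libraries with the IR response of control cells, so the values of these are not independent.

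**Figure D5:**
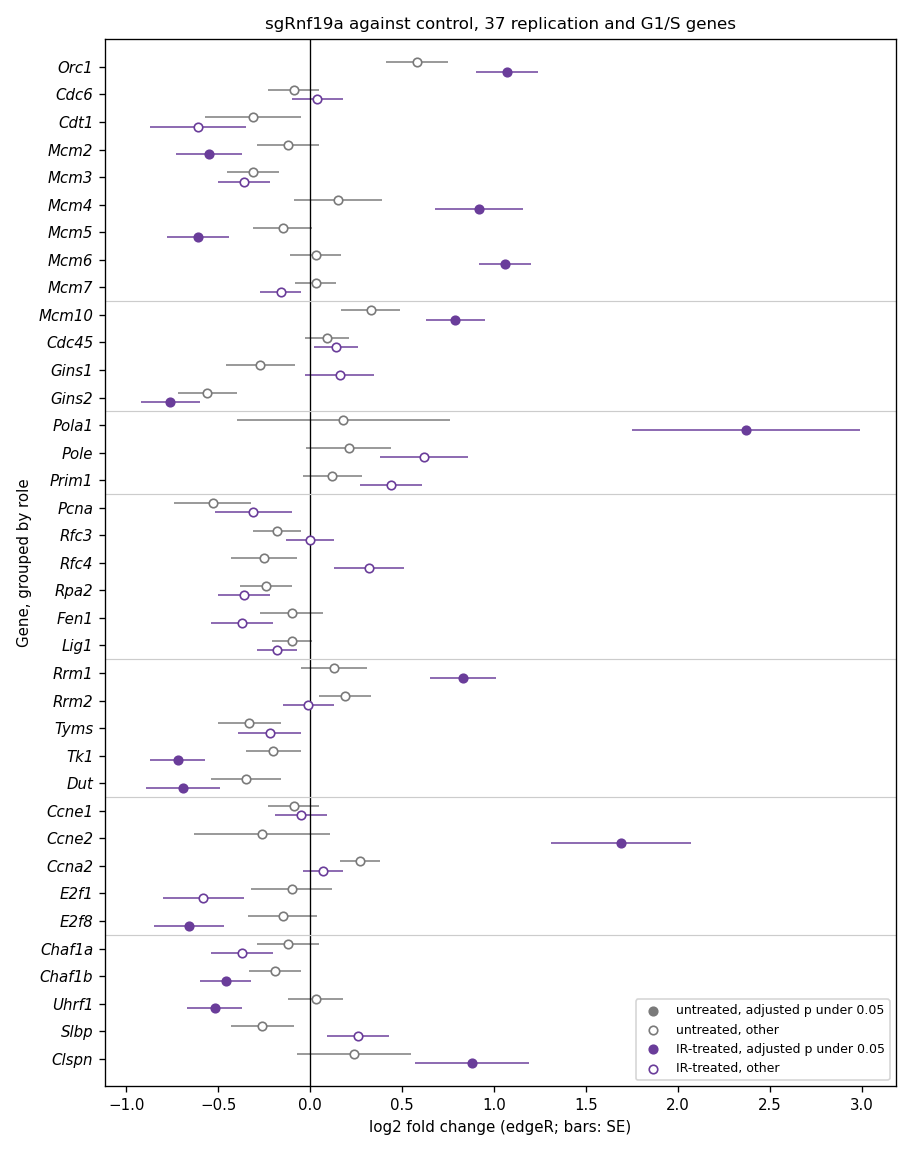
The log2 fold change of sgRnf19a against control is plotted for each of the 37 genes, grouped by role, in untreated cells (grey) and IR-treated cells (purple), with bars for the SE and filled points for an adjusted p under 0.05. No grey point is filled, and 8 purple points are filled on each side of 0.

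A wider list of 71 other replication genes, all tested, also held genes called in both directions. With IR 22 rose and 28 fell in control cells (31.0% and 39.4%), against 22.2% and 25.7% of all genes. In sgRnf19a cells 21 rose and 21 fell (29.6% each), against 18.0% and 17.6% of all genes. The medians of the 71 were 0.02 and -0.1. Falls included Topbp1, which activates the kinase ATR, 9.28-fold lower in control cells (log2 change -3.21, SE 0.41, adjusted p by edgeR = 0.000118; -2.12 corrected), and Dbf4, the activator of the kinase Cdc7, at 51.7, 53.2 and 48.6 CPM in control and 11.3, 11.5 and 13.8 in control_IR (-2.07, SE 0.21, adjusted p = 5.54e-05; -1.43 corrected). Ticrr, which brings Cdc45 to the ring, fell in both (-1.56 and -1.39, corrected -0.73 and -0.79), as did in control cells the pocket protein genes Rbl1 (-2.0; -0.41 corrected) and Rbl2 (-1.67; -0.73 corrected). In control cells Umps, of uridine synthesis, rose (0.94; 1.29 corrected). In sgRnf19a cells the small polymerase epsilon subunit Pole4 (1.51; 1.56 corrected), the nucleotide pyrophosphatase gene Dctpp1 (2.05; 0.89 corrected) and the primase subunit Prim2 (0.72; 0.58 corrected) rose, and the maintenance methyltransferase Dnmt1 (-0.97; -0.49 corrected) and the repressor E2f7 (-0.89; -0.44 corrected) fell.

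With the guide 0 of the 71 were higher and 2 lower in untreated cells, against 3.02% and 3.2% of all genes. The 2 were Pole3 (-0.48, edgeR adjusted p = 0.0288) and Rpa1 (-0.52, adjusted p = 0.0443). In IR-treated cells 19 were higher and 14 lower (26.8% and 19.7%), against 21.0% and 12.8% of all genes. Those higher included the chromatin remodeller gene Hells (2.31; 1.34 without sgRnf19a_IR replicate 4 and 0.78 corrected), Rbl1 (1.51; 0.36 corrected), Orc2 (1.42; 0.6 corrected) and Dbf4 (1.16; 0.42 corrected), and those lower E2f2 (-1.0; -0.74 corrected) and the helicase gene Recql4 (-0.92; -0.54 corrected). EdgeR called the difference between the IR responses for 0 of the 71, against 0.544% of all genes higher and 0.137% lower. At an unadjusted p under 0.05 there were 22, against 21.2% of all genes. DESeq2 called 7 higher and 2 lower, against 12.5% of all genes in either direction. The proliferation marker Mki67 went from 659, 693 and 215 CPM in control to 24.1, 22.1 and 20.1 in control_IR. In sgRnf19a cells it went from 744, 869 and 656 CPM to 30.7, 39.5 and 145, and every IR-treated library lay lower (log2 change -4.56 and -3.4, edgeR adjusted p = 0.000148 and 0.00097; -2.87 and -2.59 corrected). Without sgRnf19a_IR replicate 4 the value of Mki67 in sgRnf19a cells was -4.44.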

How the data were processed

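RNA of 12 libraries of mouse cells was analysed, in 4 groups of 3. Per the labels' protocols, the libraries kept strand, were made from RNA depleted of rRNA in 12 PCR cycles and gave 37 bp paired reads. Per the submitters' processing notes, the tools were Bowtie2, HTSeq and DESeq2, and mm10 and GRCm39 were the genome builds; their versions and whether counting used strand were not given in the sources used here. The authors deposited estimated counts per gene, not normalized, as whole numbers. In genes with transcripts over 2000 nt there were 5795 values of 4 against 940 of 3 and 937 of 5. A read pair may thus be worth about 4 counts, but what a count stands for was not established. The authors also deposited FPKM values per gene, whose coordinates matched GENCODE M21 (mm10) for 33 of the 37 genes; 12 columns repeating the counts were not used.

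The 37 genes, their roles, the 71 further genes and the markers were chosen with earlier results of these data known. All 37 and a fixed list of other genes could be named; of the 71, the called genes with the smallest p, up to 6 a comparison. Genes were kept by filterByExpr (minimum count 10, total 15; 18183 genes), scaled with TMM factors and tested in 1 model of the 4 group means on all 12 libraries in edgeR 4.0.16 (quasi-likelihood, robust, 2-sided; R 4.3.3), with Benjamini-Hochberg adjustment over all genes and calls at 0.05. The correction put splines (5 degrees of freedom) on length and GC content of the longest GENCODE M21 transcript in each library, for 18159 genes. Other alternatives were DESeq2 1.42.0, its size factors, upper-quartile factors, no filter, limma 3.58.1 on log2(FPKM + 1) for genes averaging 0.5 FPKM or more, counts divided by 4, only the groups compared, a replicate block and each library left out. Fold changes on the log2(FPKM + 1) scale understate low genes. The correction without sgRnf19a_IR replicate 4 was chosen after seeing the data. The count test and the correction were tested on simulated data. Every pair of libraries of a group differed by more than counting noise. Promoters came from RefSeq (GRCm38.p6), and figures were drawn with matplotlib 3.10.9.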

Additional observations from a re-analysis of the deposited data

Results flagged for a closer look

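The IR response of Mcm6, a subunit of the MCM2-7 helicase, differed between the genotypes by the test of the difference itself, at a log2 of 1.03 (edgeR adjusted p = 0.0382). All 3 control_IR libraries lay below the untreated ones and all 3 sgRnf19a_IR libraries above, but the value in control cells was 0.23 after the length and GC correction (adjusted p = 0.074). The difference was not called in 9 of 12 refits that left out 1 library, nor by limma on FPKM values (1.03, adjusted p = 0.0729).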

How the results depend on the processing

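Each of these genes had at least 5.55 CPM in every library, with 3 libraries a group. Counts divided by 4 gave 8 higher and 11 lower with the guide in IR-treated cells, beside 8 and 8 in the main fit. Whether depth, the number of libraries or single libraries limit the calls was not tested. On limma's FPKM fit the genes called with IR came to 9 higher and 19 lower in control cells and 5 and 16 in sgRnf19a cells, with 1 lower in untreated sgRnf19a cells against control and 0 higher in the difference between the IR responses. The length and GC correction left 7 lower with IR in control cells, 3 higher with the guide in IR-treated cells, and gave 1 higher and 2 lower with the guide in untreated cells; without sgRnf19a_IR replicate 4 as well, the last 3 counts were 3, 1 and 4. With only the groups compared in the fit, there were 9 higher and 4 lower with IR in sgRnf19a cells. With the guide there were then 1 and 2 in untreated cells and 5 and 3 in IR-treated cells. The share of all genes in that fit was not counted. DESeq2 gave 1 and 1 with the guide in untreated cells and 3 higher for the difference, counts divided by 4 gave 1 lower with the guide in untreated cells, and upper-quartile factors 5 lower with IR in sgRnf19a cells. The cause of these shifts was not tested.

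Leaving out single libraries of the groups compared gave 13 to 15 higher and 10 to 12 lower with IR in control cells, 8 to 17 and 5 to 10 with IR in sgRnf19a cells, 6 to 10 and 2 to 14 with the guide in IR-treated cells, 0 and 0 with it in untreated cells, and 0 to 5 and 0 to 3 for the difference. Without sgRnf19a_IR replicate 4, which is in neither group, there were 17 and 14 with IR in control cells and 1 and 1 with the guide in untreated cells. The highest counts of the last pair, and the 14, came without sgRnf19a_IR replicate 3, and the 2 without control_IR replicate 1. Shares of all genes were not counted for most of these refits.

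Directions of single called genes turned under 3 settings. With the length and GC correction the IR values in control cells were 0.23 for Mcm6, 0.07 for Mcm10, 0.13 for Rrm1, -0.13 for Ccne1 and -0.16 for Chaf1b, and that of Tk1 in sgRnf19a cells was -0.1. With sgRnf19a_IR replicate 4 left out as well they were 0.23, 0.08, 0.14, -0.12, -0.15 and -0.15. On FPKM values those in control cells were -0.01 for Mcm7, -0.04 for Cdc45, -0.11 for Ccne1 and -0.08 for Chaf1b, and in sgRnf19a cells -0.17 for Mcm7, -0.06 for Tk1 and -0.05 for Ccne1.

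Whether the replicate numbers pair the untreated libraries is not settled. Deviations of same-numbered libraries from their group means correlated at -0.198, 0.053 and 0.138, but with 3 libraries a group this cannot exclude a pairing. The rRNA share rose with the replicate number in both groups. It was 0.408, 0.593 and 0.813% in control replicates 1, 2 and 3 and 0.424, 0.657 and 0.803% in those of sgRnf19a. With the replicate block, 1 gene was higher and 6 lower with the guide in untreated cells, against 8.42% and 10.4% of all genes. No paired analysis was made for the IR-treated libraries: their column numbers are not the replicate numbers of the labels, no label says that a number marks a pair, and the groups share only the numbers 1 and 4.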
